A study of Mus musculus with 2 samples.

Results

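Slpi, Wfdc17, Wfdc21, Stfa3, Cst3, Cstb, Lrg1 and Saa3 are 8 genes for small secreted or cytosolic protease inhibitors and acute-phase proteins, taken by symbol from the 55450 features of single-cell RNA libraries of mouse peritoneal macrophages, of which 25984 had a unique molecular identifier (UMI, 1 captured transcript). All 8 were found. They were selected on function and on UMI counts measured in these libraries, so the values below describe the cells and carry no test. The cells came from Ankrd22 knockout (Ankrd22-/-) mice and from wild type (Ankrd22+/+) mice, in both cases as F4/80+ cells that a flow sorter had taken from the lavage fluid of the peritoneum, with no treatment named. F4/80 is a surface protein of macrophages, and Ankrd22 encodes an ankyrin repeat protein. The labels give neither the age, sex or number of the mice nor whether animals were pooled, and each genotype had 1 library, so every difference is between these 2 libraries and cannot be told apart from differences between animals or preparations.

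The proteins fall into 3 groups. Slpi (secretory leukocyte protease inhibitor) carries whey acidic protein (WAP) domains and blocks neutrophil elastase and cathepsin G at mucosal surfaces and in inflamed tissue. Wfdc17, known in the mouse from activated macrophages and microglia, and Wfdc21 belong to the same WAP family. Cystatins and stefins block papain-like cysteine proteases: Cst3 (cystatin C) is secreted, whereas Cstb (stefin B) and Stfa3 (a stefin A of the mouse) act in the cytosol against cathepsins. Lrg1 (leucine-rich alpha-2-glycoprotein) is an acute-phase plasma protein that modulates TGF-beta signalling through endoglin in endothelium, and Saa3 is the serum amyloid A that mouse macrophages make in inflammation. Interleukin-6 and interleukin-1 acting through STAT3, C/EBP and NF-kB factors are textbook inducers of acute-phase genes.

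In the mouse annotation (GENCODE release 21, GRCm38), Slpi (ENSMUSG00000017002) lies on chromosome 2 from 164354070 to 164389095 and Cst3 (ENSMUSG00000027447) on chromosome 2 from 148871722 to 148875692, both on the minus strand. Wfdc17 (ENSMUSG00000069792, 83703991 to 83706268) and Wfdc21 (ENSMUSG00000051748, 83746940 to 83752642) are neighbours on the plus strand of chromosome 11, 40672 bases apart. Stfa3 (ENSMUSG00000054905) lies on chromosome 16 from 36450537 to 36455392, minus strand, in the mouse stefin A cluster. Cstb (ENSMUSG00000005054) lies on chromosome 10 from 78425669 to 78427622, plus strand. Lrg1 (ENSMUSG00000037095) lies on chromosome 17 from 56119678 to 56122001 and Saa3 (ENSMUSG00000040026) on chromosome 7 from 46711998 to 46715700, both minus strand. Stfa3 belongs to a family of near-identical stefin A genes and Saa3 to the serum amyloid A family, so the count of a single copy may be incomplete.

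The 250 bases before the RefSeq transcript start are shown for Saa3 and Lrg1, the members with at least 20 CPM that were 2-fold or more higher in knockout class II low cells, and for Slpi, the most abundant member. Sequences are from RefSeq (GRCm38.p6), which listed 6 of the 8 members. The RefSeq starts differ from the outer ends of the GENCODE genes given above: the Slpi stretch lies inside its longer GENCODE span, and the Saa3 and Lrg1 stretches overlap the first bases of theirs. Capitals mark a match to the C/EBP-type motif TTGCNNAA on either strand.
Saa3 (chr7:46715677-46715926, minus strand): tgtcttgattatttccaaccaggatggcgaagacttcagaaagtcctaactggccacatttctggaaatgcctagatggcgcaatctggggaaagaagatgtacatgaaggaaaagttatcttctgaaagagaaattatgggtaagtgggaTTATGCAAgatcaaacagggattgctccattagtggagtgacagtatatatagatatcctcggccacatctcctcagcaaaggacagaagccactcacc
Lrg1 (chr17:56121947-56122196, minus strand): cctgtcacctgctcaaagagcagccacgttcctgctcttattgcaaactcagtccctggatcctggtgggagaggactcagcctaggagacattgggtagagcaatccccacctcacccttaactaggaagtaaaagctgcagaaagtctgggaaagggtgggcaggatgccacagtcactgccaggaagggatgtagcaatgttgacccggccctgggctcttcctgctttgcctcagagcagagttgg
Slpi (chr2:164356508-164356757, minus strand): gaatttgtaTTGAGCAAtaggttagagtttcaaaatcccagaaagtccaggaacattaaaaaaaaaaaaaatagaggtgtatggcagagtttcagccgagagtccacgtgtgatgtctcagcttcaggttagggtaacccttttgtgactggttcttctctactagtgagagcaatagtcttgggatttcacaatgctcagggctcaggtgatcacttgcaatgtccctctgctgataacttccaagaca
The Saa3 match lay 99 to 92 bases before the start and the Slpi match 241 to 234 bases before it. Such a match was present in 9.56% of 32851 mouse promoters of this length. The Lrg1 sequence held none of the 5 motifs searched on both strands, which were TTGCNNAA, GGGA followed after NNNN by CC (NF-kB type, in 17.6% of promoters), TTCNNNGAA (STAT type, 7.02%), TGANTCA (AP-1 type, 6.75%) and GAGGAA (PU.1 type, 23.3%). Wfdc17, Stfa3 and Cst3 each held a GAGGAA match.

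Knockout cells gave 6706 barcodes and 110956482 UMIs in all, and wild type cells gave 6315 barcodes and 96869041 UMIs. After cell filters 6036 knockout and 5946 wild type cells remained, with medians of 16003.5 and 14339 UMIs. Of these, 5991 knockout and 5892 wild type cells were macrophages and the others carried markers of B, T or NK, neutrophil, mast or erythroid cells. All 7 macrophage markers were present in both libraries. Adgre1 (F4/80) had 634 CPM in knockout and 710 CPM in wild type class II low macrophages. CPM are UMIs per gene summed over a group of cells and scaled to the same UMI total for each group. Ankrd22 had 0 UMIs in both libraries, which allows up to 0.0270 CPM in knockout and 0.0310 CPM in wild type barcodes, so it did not check the genotype labels. The median share of mitochondrial UMIs in macrophages was 1.47% in knockout and 0.685% in wild type cells, and its part in the results was not tested. The libraries shared 15 barcode sequences, of which 14 knockout and 12 wild type barcodes were kept.

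Macrophages were divided by cycling state and by the UMIs of the class II antigen genes H2-Aa, H2-Ab1, H2-Eb1 and Cd74 per 10000 UMIs of the cell. Cells with at least 10 UMIs of 35 proliferation genes per 10000 were called cycling, and other cells were class II high or low on either side of 3.54. Cycling cells were 6.51% of knockout (390 cells) and 5.92% of wild type macrophages (349 cells). Class II high non-cycling cells were 14.5% of knockout (870 cells) and 24.8% of wild type macrophages (1464 cells), and class II low non-cycling cells were 79.0% (4731 cells) and 69.2% (4079 cells). The class II level had a single peak near 0, so high and low are ranges and not types: 922 knockout and 1409 wild type macrophages lay within 2-fold of the class II threshold. Cycling cells were deeper, with medians of 25313 UMIs in knockout and 21670 UMIs in wild type cells, against 15628 UMIs in knockout and 14127 UMIs in wild type class II low cells.

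Slpi was the most abundant gene of the set in every macrophage class, and of the members with at least 20 CPM, Lrg1 and Saa3 were higher by 2-fold or more in knockout class II low cells. Because each UMI stands for 1 transcript end, levels can be read across genes without a length correction. The 8 genes together made 5.31% of all UMIs of knockout and 5.10% of wild type class II low macrophages. Of the 6 members with at least 20 CPM, 2 of 6 were at least 2-fold apart in class II low cells, 1 of 6 in class II high cells and 2 of 6 in cycling cells, all of them higher in knockout cells. The cycling class pooled 300 class II low and 90 class II high knockout cells, against 185 and 164 wild type cells, and Saa3 was under 2-fold in each of these parts. Among all genes with at least 20 CPM, 3.8% were at least 2-fold apart in class II low cells (1.71% higher in knockout), 4.24% in class II high cells (2.2% higher) and 4.5% in cycling cells (2.09% higher). The median gene was itself 0.21 higher in knockout class II low cells, 0.23 in class II high cells and 0.16 in cycling cells on the log2 scale of CPM + 1, which is used for every log2 ratio here, and Lyz2 (lysozyme) alone made 25646 CPM in knockout and 61760 CPM in wild type class II low cells.

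**Figure D1:**
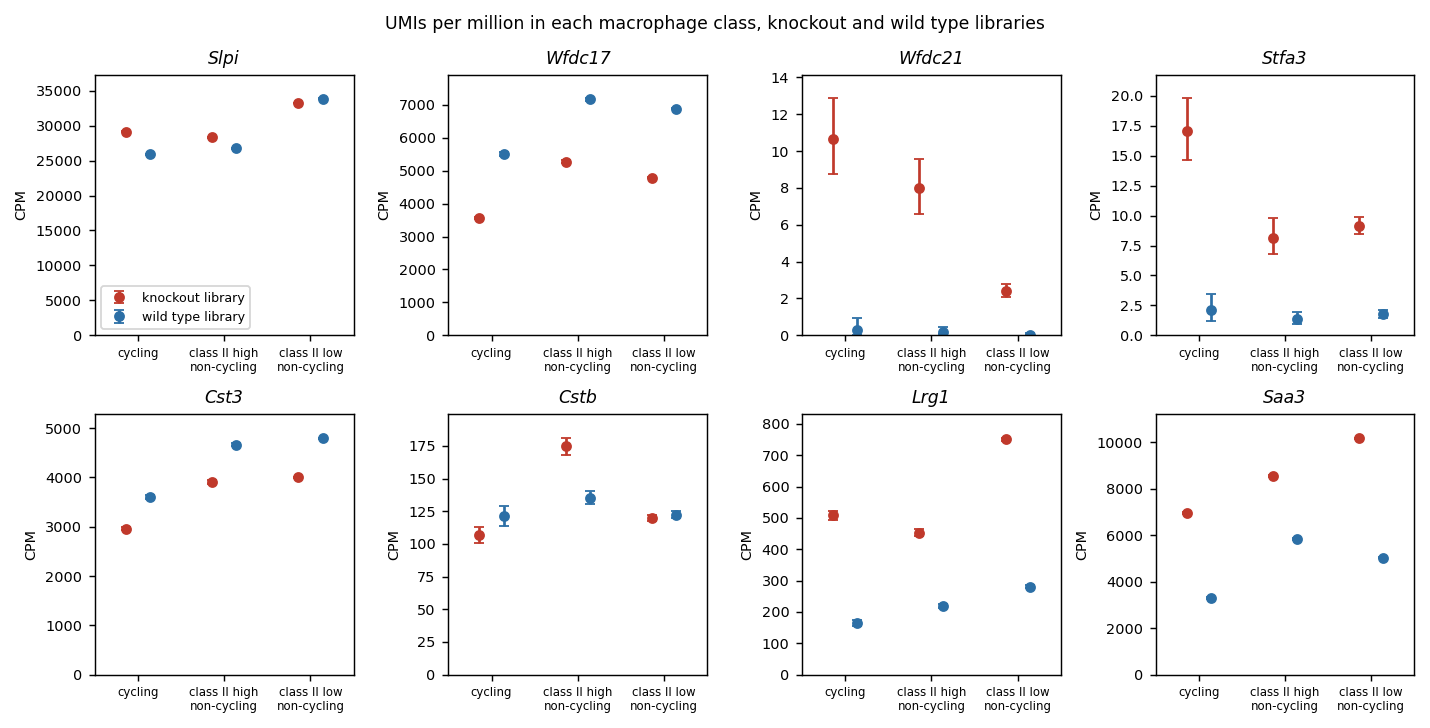
Each panel gives the CPM of 1 gene (y axis) in cycling, class II high non-cycling and class II low non-cycling macrophages of the knockout (left point of each pair) and wild type library (right point), with exact 95% Poisson intervals for counting error only. Lrg1 and Saa3 lie higher in the knockout library in all 3 classes, Wfdc17 and Cst3 lie lower, and Slpi is between 25909 and 33892 CPM.

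Among the WAP inhibitors, Slpi had 33245 CPM in knockout and 33892 CPM in wild type class II low macrophages, which made it the gene with the highest UMI count in knockout and the second highest in wild type cells. In class II high cells Slpi had 28351 CPM in knockout and 26803 CPM in wild type. In cycling cells it had 29155 CPM in knockout and 25909 CPM in wild type. The log2 ratios of knockout over wild type were -0.03 (95% counting interval -0.03 to -0.03), 0.08 (0.08 to 0.09) and 0.17 (0.16 to 0.18), all under 1.5-fold, and relative to the median gene they were -0.24, -0.15 and 0.02. The sign of the class II high value turned under both other scalings, so no direction is given for Slpi.

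Wfdc17 was lower in the knockout library in each class, by less than 2-fold. It had 4786 CPM in knockout and 6883 CPM in wild type class II low cells, a log2 ratio of -0.52 (95% counting interval -0.53 to -0.52) and -0.74 relative to the median gene. In class II high cells the values were 5278 CPM in knockout and 7166 CPM in wild type (-0.44), and in cycling cells 3565 CPM and 5505 CPM (-0.63).

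Wfdc21, the neighbour of Wfdc17, was seen in few cells and nearly only in the knockout library. It had 185 UMIs (2.39 CPM) in knockout and 2 UMIs (0.0335 CPM) in wild type class II low cells. Without the 1 added to CPM, that is a ratio of 71.2 with a counting interval of 19.4 to 592. The log2 ratio of CPM + 1 was 1.71, and the fold ratios below are without the added 1. Class II high cells held 118 UMIs (7.97 CPM) in knockout and 4 UMIs (0.185 CPM) in wild type, a ratio of 43.1 (16.4 to 161). Cycling cells held 108 UMIs (10.7 CPM) in knockout and 2 UMIs (0.266 CPM) in wild type, a ratio of 40.1 (10.8 to 335). The gene stayed under 20 CPM in all 3 classes and is not in the 2-fold counts. In the class II high part of the cycling cells it passed 20 CPM, with 63 UMIs (25.25 CPM) in 90 knockout cells and 0 UMIs in 164 wild type cells. These UMIs lay in few cells: the 75th percentile was 0 and the highest knockout cell had 10.4 Wfdc21 UMIs per 10000. The cycling values therefore lean on few cells, and the counting intervals do not cover this.

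Among the cystatins, Cst3 was abundant and moderately lower in the knockout library, whereas Cstb differed little in class II low cells. Cst3 had 4003 CPM in knockout and 4793 CPM in wild type class II low cells, with a log2 ratio of -0.26 (95% counting interval -0.27 to -0.25), and -0.25 in class II high and -0.28 in cycling cells. Cstb had 120 CPM in knockout and 122 CPM in wild type class II low cells (-0.03, interval -0.07 to 0.01). In class II high cells Cstb had 175 CPM in knockout and 135 CPM in wild type (0.37, interval 0.29 to 0.44), and in cycling cells 107 CPM in knockout and 121 CPM in wild type (-0.18, interval -0.31 to -0.05).

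Stfa3 was scarce in both libraries and higher in the knockout library. It had 710 UMIs (9.16 CPM) in knockout and 104 UMIs (1.74 CPM) in wild type class II low cells. Without the added 1, that is a 5.26-fold ratio (95% counting interval 4.27 to 6.52). The ratio was 6.09 (4.04 to 9.48) in class II high cells, with 8.17 CPM in knockout and 1.34 CPM in wild type. It was 8.03 (4.81 to 14.4) in cycling cells, with 17.1 CPM in knockout and 2.13 CPM in wild type. In the class II high part of the cycling cells Stfa3 passed 20 CPM, with 26.5 CPM (66 UMIs) in knockout and 3.33 CPM (12 UMIs) in wild type. Of its relatives in the stefin A cluster, Stfa1 and Stfa2l1 each had 0 UMIs in knockout and 1 UMI in wild type class II low cells, and Stfa2, BC100530, BC117090 and Gm5483 had 0 in both. These were named after their values were seen. How reads shared by near-identical copies were counted was not tested, so these zeros do not show absence and the Stfa3 count may be partial.

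Of the acute-phase genes, Lrg1 had 750 CPM in knockout and 280 CPM in wild type class II low macrophages. That is a log2 ratio of 1.42 (95% counting interval 1.40 to 1.45), or 1.20 relative to the median gene. In class II high cells Lrg1 had 453 CPM in knockout and 220 CPM in wild type (1.04, interval 0.99 to 1.10). In cycling cells it had 509 CPM in knockout and 163 CPM in wild type (1.63, interval 1.55 to 1.73). Lrg1 was thus at least 2-fold higher in all 3 classes, although in class II high cells the ratio fell below 2-fold under the other scalings.

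Saa3 had 10178 CPM in knockout and 5022 CPM in wild type class II low cells (1.02, interval 1.01 to 1.03), just above 2-fold, and 0.80 relative to the median gene. In class II high cells the values were 8539 CPM in knockout and 5834 CPM in wild type (0.55), and in cycling cells 6961 CPM and 3281 CPM (interval 1.06 to 1.11). Within cycling cells Saa3 had a log2 ratio of 0.99 in class II low and 0.90 in class II high cells, so its 2-fold call there rests on pooling parts whose sizes differed between the libraries. With TMM or median-of-ratios scaling the class II low value was 0.74, below 2-fold. Markers of neutrophils, a known source of Slpi and Lrg1, summed to 90.8 CPM in knockout and 102 CPM in wild type class II low cells. Of 13 listed genes, 11 were seen in knockout and 8 in wild type cells, with Ly6g and Ngp at 0 in both libraries. Within the sums, S100a8 had 26.0 CPM in knockout and 15.7 CPM in wild type cells and Lcn2 had 4.23 CPM and 6.89 CPM. S100a9 had 4 UMIs in knockout and 0 in wild type cells. Which cells the sums came from was not tested. Markers of mesothelium summed to 0.0387 CPM in knockout and 0.0335 CPM in wild type cells, with Msln at 0.

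**Figure D2:**
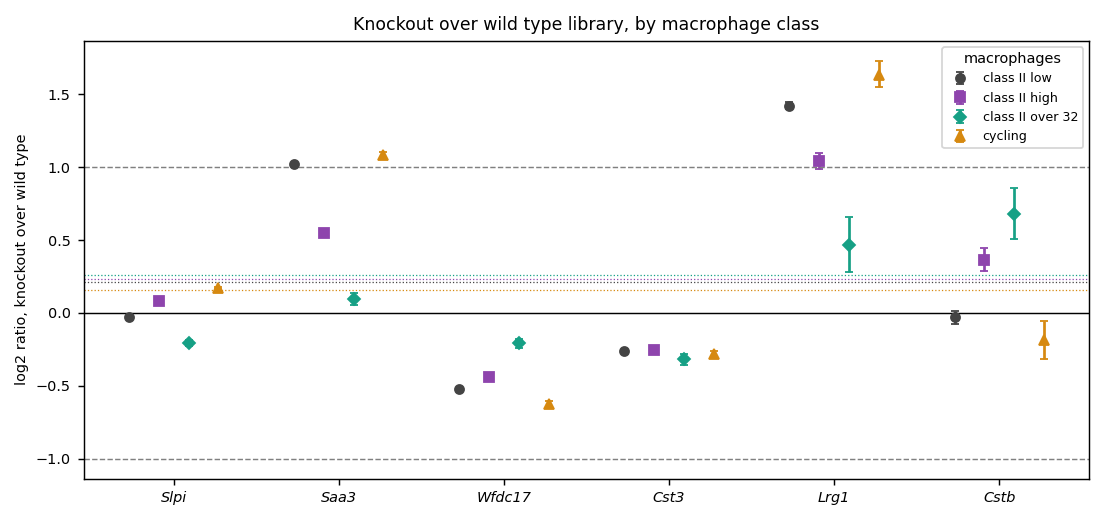
Log2 ratio of knockout over wild type CPM + 1 (y axis) for 6 members with at least 20 CPM in 4 macrophage classes, with 95% counting intervals. Dashed lines mark 2-fold and dotted lines the median gene of each class; Lrg1 is above 2-fold in class II low, class II high and cycling cells and at 0.47 in cells over 32 class II UMIs per 10000.

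As a guide to free RNA, UMIs were read in 30 knockout and 38 wild type B-cell-like barcodes. Whether these barcodes made some of the transcripts themselves or held a second cell was not tested. The barcodes held Slpi at 1559 CPM in knockout and 4120 CPM in wild type and Saa3 at 569 CPM and 1001 CPM. Wfdc17 was at 407 CPM in knockout and 1299 CPM in wild type barcodes, Cst3 at 529 CPM and 1409 CPM, Lrg1 at 33.9 CPM and 23.2 CPM, and Cstb at 47.4 CPM and 76.2 CPM. All 6 were below their class II low levels, with Cstb the closest. Wfdc21 and Stfa3 had 0 UMIs, which allows up to 20.3 CPM in knockout and 9.94 CPM in wild type barcodes, so at this depth their background could not be read. In cells thinned to 2000 UMIs, class II low cells with a Lrg1 UMI made 71.2% in knockout, against 37.5% in wild type, and B-cell-like barcodes with one made 7.69% of 26 in knockout and 5.41% of 37 in wild type. For Cstb the class II low shares were 19.9% in knockout and 20.8% in wild type, and the B-cell-like shares 3.85% and 16.2%. The share of Wfdc21 was 0.319% in knockout class II low cells (15 of 4707) and 0 of 4038 in wild type cells, which allows up to 0.0743%. Without thinning, the Wfdc21 shares were 2.30% in knockout and 0.0490% in wild type cells.

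**Figure D3:**
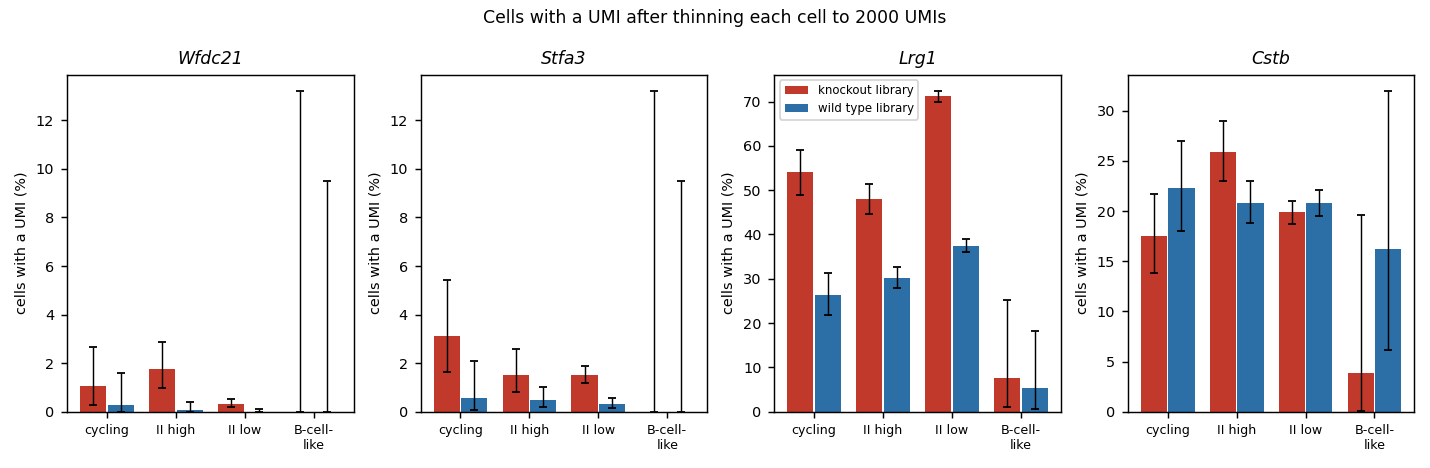
Percent of cells with a UMI of 4 genes (y axis) after thinning each cell to 2000 UMIs, for cycling, class II high, class II low and B-cell-like cells of the knockout (left bar) and wild type library (right bar), with exact binomial 95% intervals for counting error. Lrg1 reaches 71.2% in knockout and 37.5% in wild type class II low cells.

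By the ratio of the 90th to the 10th percentile, which cannot be formed where the 10th percentile is 0 (Cstb, Stfa3, Wfdc21, and Lrg1 in wild type cells), Slpi and Saa3 had the widest range among the members. In class II low cells, the 10th percentile, median and 90th percentile of Slpi were 20.4, 228 and 749 UMIs per 10000 in knockout and 20.2, 251 and 775 in wild type cells. The 90th percentile was 36.7 times the 10th in knockout and 38.4 times in wild type cells, against a median of 2.36 and 2.48 among 159 and 161 genes with at least 1000 CPM, of which Slpi was the second most spread in both libraries. Cells under 20 Slpi UMIs per 10000 made 9.66% in knockout, against 9.83% in wild type, and cells at 500 or more made 23.5% and 25.7%. The range of Slpi was wide in both libraries.

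Saa3 ranged over 13.8-fold in knockout and 18.9-fold in wild type cells between the same percentiles, with medians of 73.0 and 28.9 UMIs per 10000. Of knockout cells, 79.6% lay above the wild type median of Saa3 and 31.7% above the wild type 90th percentile. Lrg1 had medians of 6.72 in knockout and 2.10 in wild type cells, and 90.5% of knockout cells lay above the wild type median and 52.4% above its 90th percentile. The higher Lrg1 values were spread over most knockout cells of the class. Cst3 was even, with medians of 39.9 in knockout and 48.1 in wild type cells and a spread of 2.01-fold and 1.94-fold. Wfdc17 had medians of 42.6 in knockout and 64.9 in wild type cells.

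**Figure D4:**
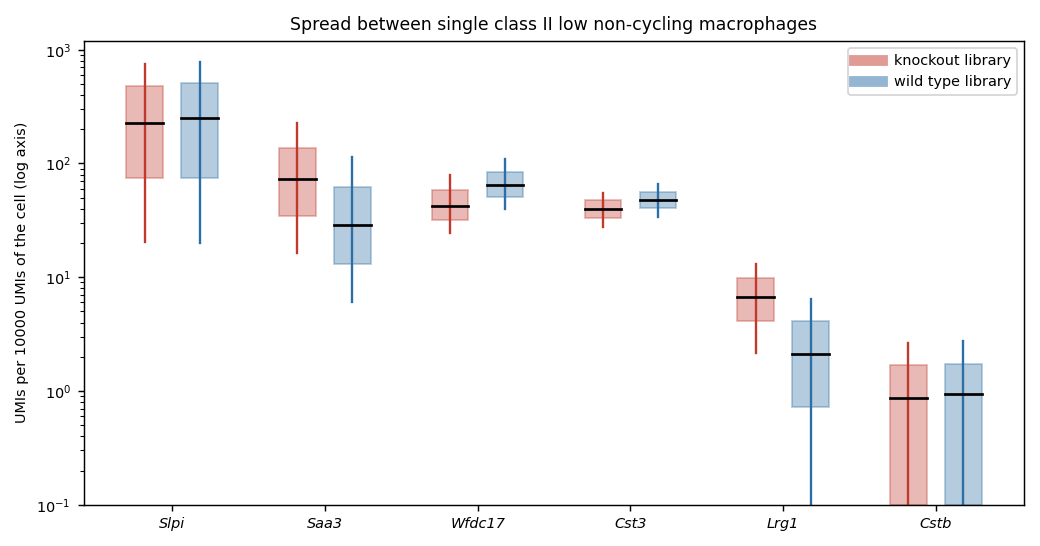
UMIs per 10000 UMIs of the cell (log y axis) for 6 members in single class II low non-cycling macrophages of the knockout (left box) and wild type library (right box): boxes span the 25th to 75th percentile, black lines are medians, thin lines reach the 10th and 90th percentile, and values of 0 are drawn at the axis floor. Slpi spans the widest range among members with a 10th percentile above 0, and the Lrg1 and Saa3 boxes lie higher in the knockout library.

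Across these 4731 knockout and 4079 wild type cells, members varied together only weakly. The highest Pearson's r was between Wfdc17 and Saa3, 0.34 in knockout and 0.28 in wild type cells; Lrg1 and Saa3 had 0.02 and -0.04. The cells share a library and its depth, so these are descriptions. The 3 genes most like each member, by the mean r over both libraries among 6779 genes, were Fabp7, Cd52 and Lyz2 for Slpi (at most 0.15), Timp2, Saa3 and Fth1 for Wfdc17 (at most 0.32) and Fau, Tyrobp and Lyz2 for Cst3 (at most 0.41). For Lrg1 they were Fxyd5, Serpinb1a and Ptgis (at most 0.23), for Saa3 Apoe, Wfdc17 and Pltp (at most 0.32), and for Cstb Ftl1, Ctsb and Anxa5 (at most 0.17). The 109 knockout class II low cells with a Wfdc21 UMI had 13203 CPM of Saa3 and 654 CPM of Lrg1, against 10096 CPM and 753 CPM in the 4622 cells without one, and medians of 17156 and 15580.5 UMIs.

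With class II level, Slpi and Lrg1 were lower and Cstb higher in class II high than in class II low cells in both libraries. None of the 6 members with at least 20 CPM was 2-fold apart between the classes, 0 of 6 in each library, where 0.838% of genes were in knockout and 0.346% in wild type cells. In knockout cells the log2 ratios of class II high over low were -0.73 for Lrg1, -0.23 for Slpi, -0.25 for Saa3 and 0.54 for Cstb. Wfdc21, under 20 CPM, was 3.34-fold higher (2.63 to 4.23) in class II high knockout cells, at 7.97 CPM against 2.39 CPM. In wild type cells the log2 ratios were -0.35 for Lrg1, -0.34 for Slpi, 0.22 for Saa3 and 0.14 for Cstb. Saa3 was thus of opposite sign in the 2 libraries, a difference that was not tested; with a threshold of 32 the wild type value was -0.50.

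The contrast was larger at the far end, in the 152 knockout and 216 wild type non-cycling cells with over 32 class II UMIs per 10000, against 2359 knockout and 1697 wild type cells with none. Slpi had 13268 CPM in knockout cells over 32, against 32112 CPM in knockout cells with none, and 15332 CPM in wild type cells over 32, against 34815 CPM in wild type cells with none. Lrg1 had 197 CPM in knockout cells over 32 against 766 CPM with none, and 142 CPM against 297 CPM in wild type cells. Saa3 had 4005 CPM against 10448 CPM in knockout cells, and 3745 CPM against 4702 CPM in wild type cells. Of the 6 members with at least 20 CPM, 4 in knockout (Slpi, Lrg1, Saa3 and Cstb) and 2 in wild type cells (Slpi and Lrg1) were at least 2-fold apart, where 7.7% of genes were in knockout and 3.04% in wild type cells.

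Cstb ran the other way, with 248 CPM in knockout cells over 32 against 120 CPM with none, and 155 CPM against 123 CPM in wild type cells. Wfdc21 was higher at the far end in knockout cells, with 13.4 CPM (33 UMIs) over 32 against 1.96 CPM (69 UMIs) with none, a ratio of 6.82 (4.36 to 10.5). These UMIs lay in few cells, 7.24% of the 152 over 32 and 1.95% of the 2359 with none. Cst3 and Wfdc17 were within 1.5-fold across the range in both libraries. At the far end the libraries were closer for Lrg1 (log2 ratio of knockout over wild type 0.47) and Saa3 (0.10): none of the 6 members was 2-fold apart there (0 of 6), where 8.01% of genes were. These cells had Retnla, a gene of small peritoneal macrophages, at 10516 CPM in knockout and 10121 CPM in wild type cells, Ccr2 at 600 and 131 CPM, and Gata6, the large-macrophage factor, at 61.6 and 83.2 CPM; the part of these cell states in the results was not tested.

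**Figure D5:**
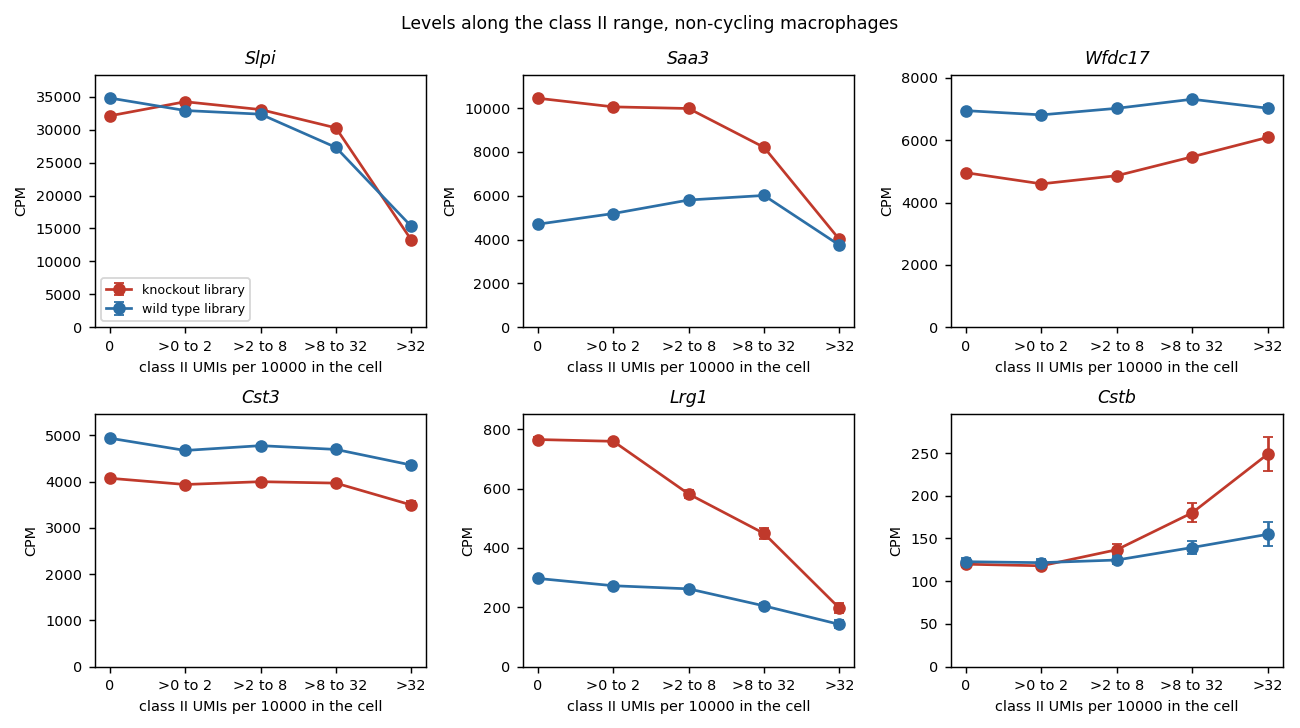
CPM of 6 members (y axis) in non-cycling macrophages of 5 ranges of class II UMIs per 10000 (x axis, from 0 to over 32), knockout and wild type library, with exact 95% Poisson intervals. Lrg1 in the knockout library is 766 CPM at 0 and 197 CPM over 32, while Cstb is 120 CPM and 248 CPM.

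Cycling cells were compared within class II low macrophages (300 cycling knockout and 185 cycling wild type cells). As a share of UMIs (CPM), the 6 members with at least 20 CPM were lower than in non-cycling cells in both libraries, except wild type Cstb. The Cstb interval held 0 and its sign turned (0.03) with cycling called from 5 per 10000. None was 2-fold apart (0 of 6 each), where 6.29% of genes were in knockout and 8.11% in wild type cells. The log2 ratios of cycling over non-cycling cells ranged in knockout from -0.43 (Wfdc17) to -0.14 (Slpi) and in wild type from -0.55 (Lrg1) to -0.06 (Cstb, interval -0.20 to 0.08). Stfa3 and Wfdc21 were higher in cycling knockout cells, by 1.53-fold (1.24 to 1.88) and 2.47-fold (1.74 to 3.44). In wild type cells they rested on 4 and 2 UMIs in cycling cells and give no direction. Counted per cell and not scaled to depth, the deeper cycling knockout cells held more UMIs of each of the 6 members. Slpi had 767 UMIs per cycling and 545 per non-cycling knockout cell, and Saa3 193 and 167. In wild type cells the same held for each of the 6 except Lrg1, at 4.054 UMIs per cycling and 4.101 per non-cycling cell.

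Other genes of these pathways were read from lists, in class II low cells and by the same 2-fold rule. Of 14 other WAP and Kunitz inhibitors, 1 had 20 CPM (Wfdc18, named after its value was seen, with 13.8 CPM in knockout and 20.3 CPM in wild type cells, -0.53), and it was under 2-fold. Of 18 other cystatins and stefins, 16 were in the features and none (0) had 20 CPM. Of 24 serpins and other protease inhibitors, 6 had 20 CPM, and of 14 lysosomal proteases, most of them cystatin targets, 11 did; none of these was 2-fold apart, and the medians were 0.06 and -0.11, against 0.21 over all genes. Of 8 serine proteases of the kind Slpi acts on, Prtn3 (proteinase 3, which Slpi inhibits poorly), named after its value was seen, was the only member with 20 CPM, at 633 CPM in knockout and 357 CPM in wild type cells (0.83).

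Of 20 other acute-phase genes, 3 had 20 CPM and Cp (ceruloplasmin) was 2-fold or more lower in the knockout library, where 2.09% of all genes were, at 7.30 CPM in knockout and 27.5 CPM in wild type cells (-1.78). The others were under 2-fold: Hp was higher, at 147 CPM in knockout and 111 CPM in wild type cells (0.40). C3 had 59.6 CPM in knockout and 62.8 CPM in wild type cells (-0.07). Of 15 inducing signals, 11 had 20 CPM and 2 were lower, the cytokines Il6 (13.1 CPM in knockout and 42.9 CPM in wild type, -1.63) and Il1b (9.97 CPM and 35.2 CPM, -1.72), with a median of -0.13. Of 19 genes of TGF-beta signalling, the pathway of Lrg1, 10 had 20 CPM and Id3, a target of BMP signalling, was lower (8.87 CPM in knockout and 42.9 CPM in wild type, -2.15), with a median of 0.27. Of 11 genes listed for neutrophil granules, 3 had 20 CPM and the lysozymes Lyz1 (463 CPM in knockout and 2094 CPM in wild type, -2.17) and Lyz2 (-1.27) were lower. Lyz2 is also among the macrophage markers used here, so these values are not a reading of neutrophils. The third, S100a8, had 26.0 CPM in knockout and 15.7 CPM in wild type cells (0.69), while S100a9 had 4 UMIs and 0 UMIs. No list gene with 20 CPM was 2-fold higher. Below that minimum, directions were mixed. The acute-phase genes Saa1 (49 UMIs in knockout and 5 UMIs in wild type) and Orm1 (9.45 CPM and 4.29 CPM) were more than 2-fold higher in CPM. Lcn2 of the same list (4.23 CPM in knockout and 6.89 CPM in wild type) and the inducing signal Tnf (1.97 CPM and 7.19 CPM) were lower. These genes, Hp, C3, S100a8 and S100a9 were named after their values were seen.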

How the data were processed

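Each genotype had 1 library of F4/80+ peritoneal cells, built with 10x Genomics Single Cell chemistry, per the labels' protocols. The deposited values were whole-number UMI counts per gene and barcode, which the file headers credit to Cell Ranger 6.1.2; bcl2fastq, Seurat 4.1.0 and mm9 are named in the submitters' processing notes without a role. All 55450 feature identifiers are in GENCODE release 21 (GRCm38), used here for positions. Values are in CPM computed from summed counts.

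Barcodes were kept with at least 500 genes and at most 10% mitochondrial UMIs, and as Scrublet's own threshold called 1 barcode per library, the highest scores were removed at 0.8% per 1000 barcodes (324 knockout, 313 wild type). Barcodes with at least 3 markers of another cell type were set apart. The class II threshold (3.54 UMIs per 10000) was Otsu's. UMIs were summed per class. Log2 ratios are of CPM + 1, whereas the fold ratios given for Wfdc21 and Stfa3 have no 1 added. The exact conditional binomial 95% intervals of all ratios were formed from the counts without the added 1. Shares have exact Clopper-Pearson intervals. Intervals and zero-count limits (3 counts) cover counting error only. A gene was called at 2-fold with at least 20 CPM in the higher sum. With 1 library per genotype no test was made.

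Named genes were the 8 members, list genes 2-fold apart with 20 CPM, and the 3 genes most like each member. Members and lists were chosen with earlier results of these data known. The alternatives were other scalings, minimums, thresholds and doublet settings. The count procedure was tested on simulated data. Tools were matplotlib 3.10.9, numpy 2.4.6, pandas 2.3.3, Python 3.11.15, scanpy 1.11.5, scikit-image 0.26.0 and scipy 1.17.1, with edgeR 4.0.16 in R 4.3.3 used for TMM factors only.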

Additional observations from a re-analysis of the deposited data

Results flagged for a closer look

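Of the ratios between libraries, Slpi had a log2 ratio of knockout over wild type of -0.0278 in class II low cells, 0.081 in class II high cells and 0.17 in cycling cells. Cstb had 0.365 in class II high cells and -0.182 in cycling cells. Saa3 had a log2 ratio of class II high over class II low cells of -0.253 among knockout cells and 0.216 among wild type cells. Each was set apart because 2 groups moved in opposite directions; with 1 library per genotype the difference was not tested.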

How the results depend on the processing

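No paired analysis was possible because each genotype had 1 library and no result comes from a test. Counts of members at least 2-fold apart were 2 of 6 in class II low, 1 of 6 in class II high and 2 of 6 in cycling cells. With no CPM minimum they were 4, 3 and 4, with Wfdc21 and Stfa3 added, and between classes in the knockout library 1 (Wfdc21) for class II and 1 (Wfdc21) for cycling. With the class II threshold 2 times as high they were 1 in class II low (Lrg1) and 0 in class II high cells. With TMM and with median-of-ratios scaling alike they were 1 in class II low, 0 in class II high and 1 in cycling cells (Lrg1). With a threshold of 32, chosen after seeing the data, they were 1 in class II low, 0 in class II high, 3 for class II in knockout (Slpi, Lrg1 and Saa3 lower) and 1 in wild type cells (Slpi lower). No called value changed sign, but several others did. Between libraries, Slpi and Cstb in class II low cells turned with a threshold of 32. Slpi in class II high cells turned with that threshold and under both other scalings. Between classes in wild type cells, Saa3 and Wfdc21 turned with a threshold of 32 and Stfa3 with the class II threshold 0.5 times as high. For cycling over non-cycling wild type cells, Stfa3 turned with a threshold of 32. There Cstb turned to 0.03 with cycling called from 5 per 10000. Scaling moved all log2 ratios of knockout over wild type by -0.28 in class II low cells, -0.30 or -0.33 in class II high cells and -0.16 in cycling cells. Lrg1 stayed positive in all 14 alternatives, from 1.14 to 1.43 in class II low cells, and Saa3 from 0.74 to 1.04. The cause of the changes was not tested. Wfdc21 and Stfa3 are limited by depth, and animal-to-animal variation cannot be read from 1 library.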

Other observations

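The 2 knockout and 9 wild type neutrophil-like barcodes had Slpi at 35958 CPM and 37647 CPM, Saa3 at 41024 CPM and 18299 CPM, and Lrg1 at 1228 CPM and 185 CPM. They also held Wfdc17 at 8366 CPM and 7528 CPM and Cst3 at 5795 CPM and 4068 CPM, both abundant in the macrophages. Whether these barcodes were neutrophils, macrophages or both in 1 barcode was not tested. Wfdc21 had 5 UMIs among these knockout barcodes and 0 among the wild type ones, and Stfa3 had 0 in both.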
